A study of Homo sapiens with 8 samples.

Results

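The human DNA topoisomerase genes and their main repair partners were followed in U2OS cells, an established osteosarcoma cell line. The members are 8 genes taken by symbol from 19414 genes in each deposited table: the topoisomerases TOP1, TOP1MT, TOP2A, TOP2B, TOP3A and TOP3B, and the tyrosyl-DNA phosphodiesterases TDP1 and TDP2. The series title names MYC, FACT (a chaperone of histones) and Z-DNA, a left-handed double helix. RNA-seq libraries of total RNA fall into 4 groups of 2. The WT group carries neither factor. In the MYC group the transcription factor MYC is overexpressed. The Zab group carries Zab, written Zαβ in the series design, as the Z-DNA-binding and Z-RNA-binding region of ADAR1, an RNA editor, is usually called. The Zab+MYC group carries both. The promoters that drive either factor, the number of clones and the time of expression are not given in the sources used here, and all 4 groups share the U2OS background.

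DNA topoisomerases cut the helix, let it turn or let another strand pass, and reseal it. TOP1 and TOP1MT break 1 strand and release supercoils in the nucleus and in mitochondria, TOP2A and TOP2B break both strands and can separate linked duplexes, and TOP3A and TOP3B act on single strands. Negative supercoiling behind a moving RNA polymerase favours Z-DNA, and topoisomerases remove it. When an enzyme stays trapped on DNA, TDP1 clears the TOP1 remnant and TDP2 clears the TOP2 remnant.

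Libraries held 686992 to 1326170 tags in exons of coding genes, which is shallow for the lowest members. MYC and ADAR lay in the direction of the labels: MYC was at 72.6 and 94.8 CPM in WT and 1237 and 1290 in the MYC group, and ADAR was at 264 and 270 CPM in WT and 6003 and 6198 in the Zab group. CPM here means tags relative to the exon tags of the library, as counts per 1e+06, after scaling between libraries. ADAR was lower in Zab+MYC (1068 and 1019 CPM) than in Zab, and MYC was lower in Zab+MYC (707 and 705 CPM) than in the MYC group, so neither factor is at matched levels in the group with both. MYC was also higher in the Zab libraries (229.5 and 194 CPM) than in WT, so Zab cells are not at the MYC level of WT, and the part of that in the Zab comparisons was not tested. Reads from introduced and endogenous transcripts of these 2 genes are not separated. Of the 8 mesenchymal and bone markers, VIM was high in every library, while SPARC averaged 1849 CPM in WT and 382 in MYC and COL1A1 1140 in WT and 116 in MYC. RUNX2 (5.51 to 22.1 CPM), CDH11 (1.98 to 21.45) and ALPL (0 to 7.09) were low, TWIST1 was at 0 in all 8 and COL1A2 reached 0.709 CPM at most. Summed epithelial markers ran from 1.44 to 7.57 CPM and summed blood markers from 0 to 1.87 CPM. The 2 libraries of each group differed by no more than counting noise (chi-square per degree of freedom 0.997 to 1.03 over 8499 to 9010 genes), and nothing says they came from separate cultures. Every p-value below thus speaks of the spread between libraries that may be technical replicates.

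All 8 members passed the filter on low values and were tested in limma among 9673 genes, with adjusted p under 0.05 called. Against WT, MYC cells had higher TOP1, TOP1MT and TOP3A and lower TOP2A and TOP2B, so 5 of 8 members were called, where 58.2% of all genes were called (27.8% higher, 30.4% lower). Against WT, Zab cells had lower TOP2A and TOP2B and higher TOP3A, so 3 of 8 were called, where 24.4% of all genes were (13.1% higher, 11.3% lower). Between Zab+MYC and MYC, TOP1 was the 1 gene called and was lower, where 20% of all genes were called (11.8% higher, 8.14% lower). Between Zab+MYC and Zab, the 1 gene called was TOP1MT, which was higher, where 26.8% of all genes were called (14.3% higher, 12.5% lower). In MYC against WT the share of members called was near that of all genes, so it is no result about the members as a set. The interaction, which asks whether the change with MYC differs with and without Zab, was called for TOP1, TOP2A, TOP2B and TOP3A, 4 of 8, where 27.9% of all genes were called (14.6% higher, 13.3% lower). Taken in this order, the 5 contrasts had a median log2 difference over the members of 0.14, 0.04, -0.10, 0.14 and -0.02. Over all genes tested the same medians were -0.04, 0.00, 0.00, -0.01 and 0.02. In bulk RNA, fewer cells that express a gene and less of its RNA per cell cannot be told apart. Comparisons that share the WT, MYC, Zab or Zab+MYC libraries are not independent of each other.

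**Figure D1:**
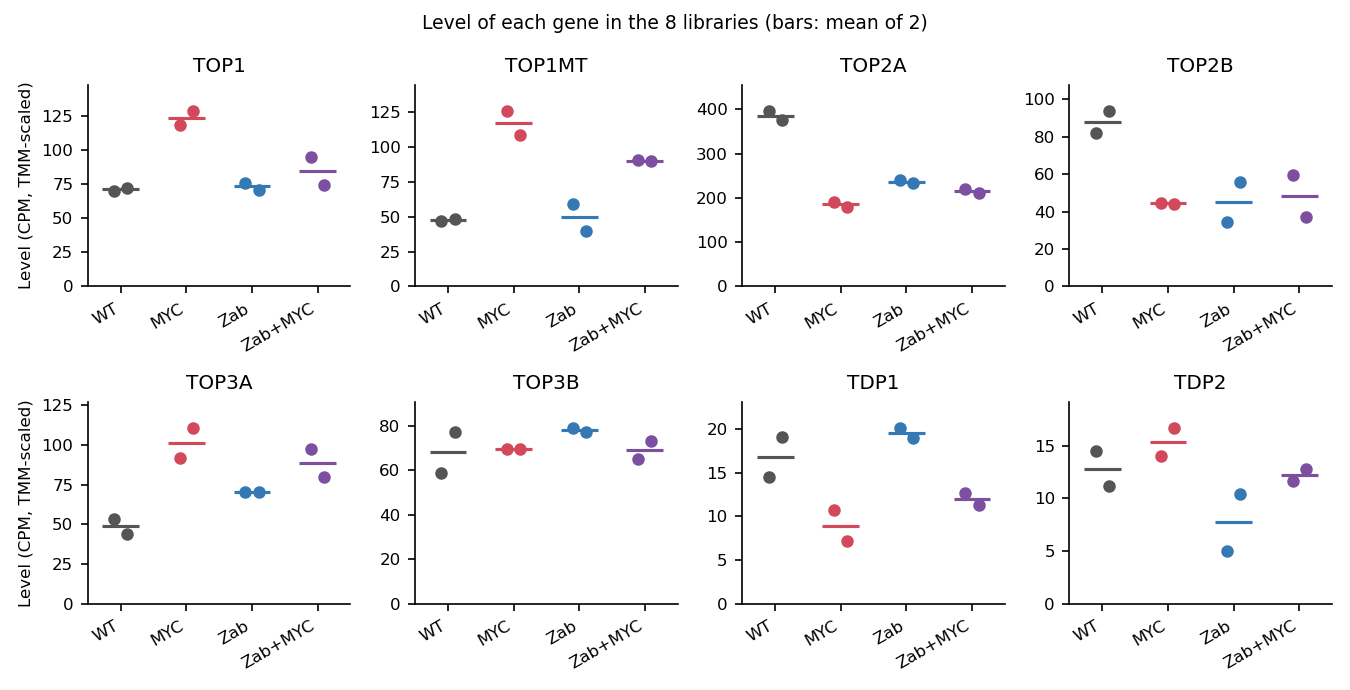
Level of each gene in CPM (vertical axis, from 0, with its own scale per panel) in the 2 libraries of each group (points), with the mean of 2 as a bar. TOP2A stands at 376 and 397 CPM in WT and between 180.0 and 240 in the other groups, whereas TOP1 and TOP1MT are highest in the MYC libraries.

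**Figure D2:**
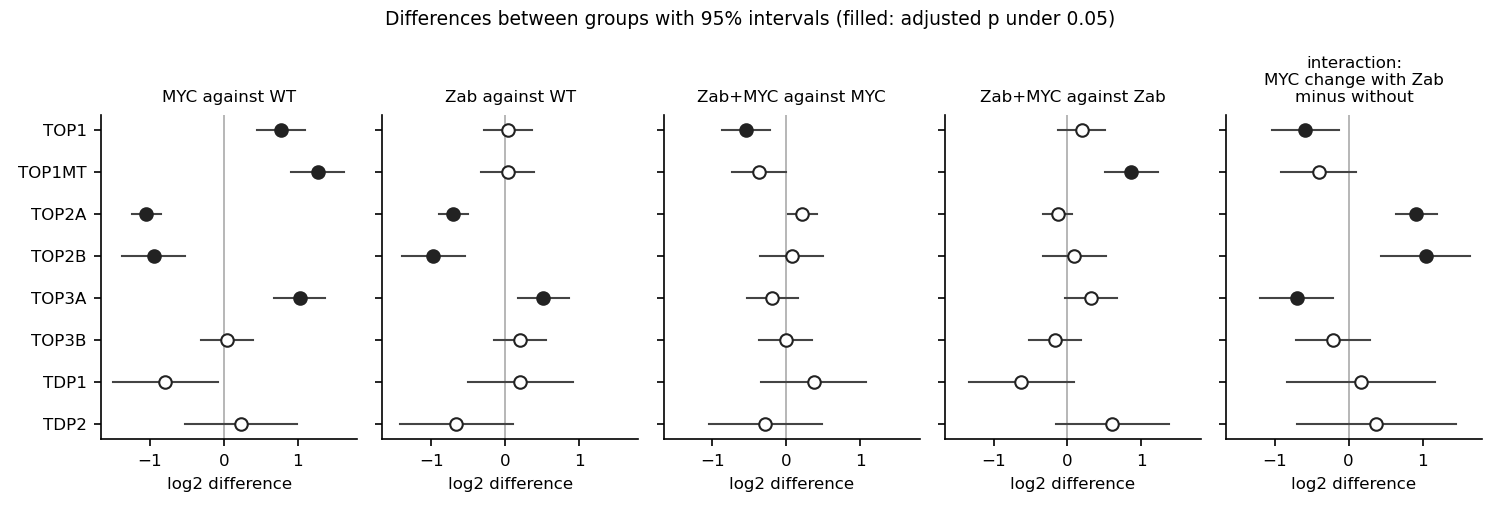
Log2 difference of each gene (horizontal axis, on log2(CPM + 2)) in the 4 comparisons and the interaction, with 95% intervals as lines and filled points where the limma adjusted p is under 0.05. The interval widens from TOP2A, the most counted gene, to TDP1 and TDP2, the least counted ones.

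TOP1, the nuclear type IB enzyme that relaxes supercoils at transcribed genes, lies at 39657462 to 39753126 on chromosome 20, plus strand (hg19), and was counted over 3692 exon bases. Its levels in CPM were 70.0 and 72.05 (WT), 118 and 128 (MYC), 76.0 and 70.4 (Zab) and 94.4 and 74.4 (Zab+MYC). Both MYC libraries lay above every other library, and the WT and Zab values overlapped. TOP1 exceeded WT 1.72-fold in MYC (log2 difference 0.78 ± 0.16 SE, limma adjusted p = 3e-05). It was lower in Zab+MYC than with MYC alone by 1.46-fold (log2 -0.54 ± 0.16, limma adjusted p = 0.010). That difference was -0.52 without MYC replicate 2 and -0.42 without Zab+MYC replicate 2, with no call in either. In DESeq2 it was -0.57 and not called (adjusted p = 0.094). On the authors' deposited scale it was -0.87 (limma adjusted p = 9.8e-06). Zab alone left TOP1 uncalled against WT (log2 0.04, 95% interval -0.28 to 0.36), and on the authors' deposited scale, where the median gene is at -0.51, the value was -0.49. With Zab present, MYC left it uncalled as well (log2 0.19, 95% interval -0.13 to 0.51). The interaction was -0.59 ± 0.23 (limma adjusted p = 0.046), lost in 11 of 20 alternatives with an adjusted p of 0.018 to 0.26. Among those were the omission of WT replicate 1 or 2, MYC replicate 1 or 2, Zab replicate 1, or Zab+MYC replicate 2, with values of -0.58, -0.61, -0.68, -0.56, -0.57 and -0.46, and the deposited scale with -0.38. RefSeq names 2 pseudogenes, TOP1P1 and TOP1P2, whose reads could be shared with TOP1.

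TOP1MT encodes the type IB enzyme of mitochondria and lies at 144391497 to 144442147 on chromosome 8, minus strand (hg19, the longer span). Levels in CPM were 46.7 and 48.2 (WT), 126 and 109 (MYC), 59.5 and 39.8 (Zab) and 90.5 and 90.0 (Zab+MYC). The 4 libraries with overexpressed MYC all lay above the 4 without it. TOP1MT exceeded WT 2.41-fold in MYC (log2 difference 1.27 ± 0.18, limma adjusted p = 7.2e-09). In the presence of Zab it was 1.82-fold higher with MYC than without (log2 0.86 ± 0.18, limma adjusted p = 0.00013). These calls held in all 20 alternatives that gave a value. Zab+MYC and MYC did not overlap, at -0.37 (95% interval -0.73 to -0.01), but the limma adjusted p was 0.15. It was called in edgeR (-0.39, adjusted p = 0.03) and on the deposited scale (-0.69, limma adjusted p = 0.0014). Zab against WT gave 0.04 (95% interval -0.32 to 0.40), and -0.49 on the deposited scale. The interaction was not called (log2 -0.41, 95% interval -0.92 to 0.10), although without Zab replicate 2 it was -0.71 with a limma adjusted p of 0.039. The transcript counted was the shorter one of 1912 bases in 3 libraries (WT replicate 1 and both of Zab) and the one of 2013 bases in the other 5, and the part of this choice in the difference was not tested.

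TOP2A, the type II enzyme that untangles chromosomes before division and a usual marker of cycling cells, lies at 38544777 to 38574148 on chromosome 17, minus strand (hg19), with 5626 exon bases in every library. TOP2A had CPM of 397 and 376 (WT), 191 and 180.0 (MYC), 240 and 234 (Zab) and 221 and 211 (Zab+MYC). No 2 groups overlapped, in the order WT, Zab, Zab+MYC and MYC. TOP2A fell 2.07-fold in MYC (log2 difference -1.05 ± 0.10, limma adjusted p = 3.2e-15) and 1.63-fold in Zab (log2 difference -0.70 ± 0.10, limma adjusted p = 2.4e-08), both set against WT. Neighbours lower in that order were not called apart: Zab+MYC against Zab gave -0.13 (95% interval -0.33 to 0.06) and Zab+MYC against MYC gave 0.22 (0.02 to 0.41, limma adjusted p = 0.11, and 0.040 with library totals). The sum of the separate MYC and Zab changes was larger than the change with both, and the interaction was 0.92 ± 0.14 (limma adjusted p = 1.7e-07). On the deposited scale the Zab change was -1.24. The 3 calls of TOP2A held in every alternative run, with interaction values of 0.84 to 1.13.

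TOP2B, the type II isoform that is not tied to the cell cycle and acts at promoters and chromatin loop anchors, lies at 25639396 to 25705990 on chromosome 3, minus strand (hg19, the longer span). Levels in CPM were 82.0 and 93.8 (WT), 44.8 and 44.0 (MYC), 34.4 and 55.7 (Zab) and 59.4 and 36.9 (Zab+MYC). Both WT libraries lay above the other 6, and those 3 groups overlapped. TOP2B fell 1.93-fold in MYC (log2 -0.95 ± 0.21, limma adjusted p = 0.00011) and 1.96-fold in Zab (log2 -0.97 ± 0.21, limma adjusted p = 0.0003), both against WT. The Zab change was -0.64 without Zab replicate 1 (limma adjusted p = 0.049), -1.28 without Zab replicate 2 and -1.49 on the deposited scale. Zab+MYC gave 0.07 against MYC (95% interval -0.35 to 0.50) and 0.09 against Zab (-0.34 to 0.52). The interaction was 1.04 ± 0.30 (limma adjusted p = 0.006), and 4 of 19 alternatives lost the call. It was 0.67 without Zab replicate 1 and 0.68 without Zab+MYC replicate 1. The other losses were DESeq2 (1.04, adjusted p = 0.12) and no filter (0.99, limma adjusted p = 0.055). Per group 69.5 to 154 tags stood behind TOP2B, against 358 to 669 behind TOP2A. RARB, the one coding gene whose span overlaps TOP2B on the other strand, had 3 tags over all 8 libraries.

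The promoters of these genes are shown because TOP2A and TOP2B were lower and TOP1 and TOP3A higher in MYC than in WT. Each line gives the 250 bases before a transcription start, read along the gene's strand, from the RefSeq promoter table (GRCh38.p14). Of the members, 7 could be looked up there, at 8 starts, since TOP2B has 2. The missing member is TOP1MT, which was also higher in MYC than in WT. Capitals mark ATTGG, the CCAAT box on the opposite strand, which is a binding site of the factor NF-Y common in cell cycle genes. TOP2A is from chr17:40417897-40418146, minus strand, the more upstream TOP2B start from chr3:25664908-25665157, minus strand, TOP1 from chr20:41028572-41028821, plus strand, and TOP3A from chr17:18314995-18315244, minus strand.
TOP2A: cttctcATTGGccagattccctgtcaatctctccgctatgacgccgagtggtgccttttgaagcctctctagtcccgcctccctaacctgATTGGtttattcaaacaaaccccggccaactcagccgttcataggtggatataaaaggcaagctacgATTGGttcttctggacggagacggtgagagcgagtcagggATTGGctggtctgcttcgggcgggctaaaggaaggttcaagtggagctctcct
TOP2B: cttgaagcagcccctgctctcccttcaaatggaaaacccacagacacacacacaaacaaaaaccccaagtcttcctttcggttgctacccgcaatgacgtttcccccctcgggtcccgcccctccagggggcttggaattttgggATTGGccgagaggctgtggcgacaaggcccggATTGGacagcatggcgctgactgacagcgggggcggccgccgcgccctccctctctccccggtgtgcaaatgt
TOP1: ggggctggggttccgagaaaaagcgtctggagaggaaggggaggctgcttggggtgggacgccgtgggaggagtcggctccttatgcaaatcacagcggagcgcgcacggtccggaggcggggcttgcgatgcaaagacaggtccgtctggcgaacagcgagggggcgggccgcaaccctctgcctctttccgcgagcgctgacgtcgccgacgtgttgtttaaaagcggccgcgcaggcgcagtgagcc
TOP3A: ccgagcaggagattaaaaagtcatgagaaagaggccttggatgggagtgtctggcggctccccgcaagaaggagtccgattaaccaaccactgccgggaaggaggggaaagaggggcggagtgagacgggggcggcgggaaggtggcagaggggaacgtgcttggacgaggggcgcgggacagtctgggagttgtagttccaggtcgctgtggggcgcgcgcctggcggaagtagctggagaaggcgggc
The letters CCAAT or ATTGG occurred 4 times before TOP2A, with first bases at -244, -160, -93 and -53 from the start, where 0.874% of 35116 promoter windows of this length hold as many and 32.0% hold at least 1. The upstream TOP2B start had 2, at -105 and -73, a number that 9.5% of windows reach. The other TOP2B start and TOP1, TOP3A, TOP3B, TDP1 and TDP2 had no such match in this window. That other TOP2B window, chr3:25664373-25664622, is not printed above and held no CHR match either. Which of the 2 starts belongs to the TOP2B transcripts counted here was not tested, so the printed window may not be theirs. The E-box CACGTG, the letters that MYC is best known to bind, was in none of the 8 windows and in 6.3% of all windows. At that share few matches would be found in 8 windows, and TOP1MT was not searched. TTTGAA or TTCAAA, the CHR element of cell cycle promoters, was found 2 times before TOP2A, 1 time before the upstream TOP2B start and 1 time before TDP1, against 13.3% of windows with any. The GC box GGGCGG or CCGCCC occurred before TOP1, TOP2A, TOP3A, TDP2 and both TOP2B starts, and in 42.6% of all windows. Both strands were searched and no CCAAT match overlapped a CHR match. Matches describe letters and were not tested as binding sites.

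**Figure D3:**
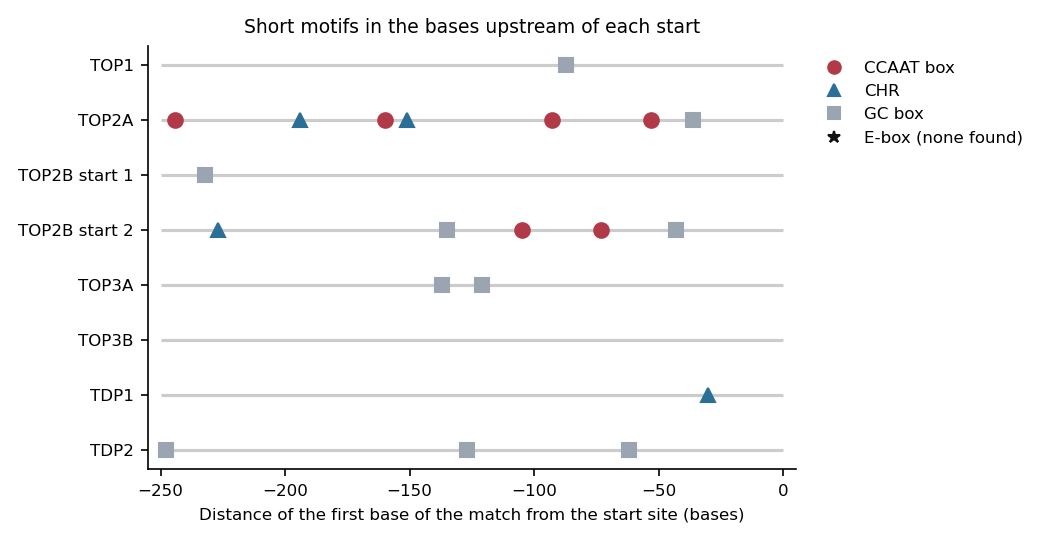
Position of the first base of each motif match (horizontal axis, bases from the start site) in the upstream window of 7 genes, with TOP2B at its 2 starts. TOP2A carries 4 CCAAT and 2 CHR matches, and no window carries the E-box letters.

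TOP3A, the type IA enzyme that dissolves joined DNA molecules with BLM and the RMI proteins and also works in mitochondria, lies at 18174743 to 18218308 on chromosome 17, minus strand (hg19). TOP3A had CPM of 53.6 and 44.0 (WT), 92.0 and 111 (MYC), 70.3 and 70.4 (Zab) and 97.3 and 80.1 (Zab+MYC). WT was lowest and Zab next, without overlap, while the MYC and Zab+MYC libraries overlapped. TOP3A exceeded WT 2.04-fold in MYC (log2 difference 1.02 ± 0.17, limma adjusted p = 5.8e-07). In Zab it was 1.43-fold higher than in WT (log2 0.52 ± 0.17, limma adjusted p = 0.021). That call ended on the deposited scale, where the value was -0.01. It also ended without WT replicate 2 (0.38), Zab replicate 1 (0.52) or Zab replicate 2 (0.53). DESeq2 did not call it either (0.54, adjusted p = 0.27), nor did limma on only the 4 libraries compared (0.52, adjusted p = 0.05). Zab+MYC against Zab gave 0.32 (95% interval -0.03 to 0.67) and Zab+MYC against MYC gave -0.19 (-0.54 to 0.16). Both were called on the deposited scale, at 0.47 (limma adjusted p = 0.031) and -0.51 (0.016). The interaction was -0.71 ± 0.25 (limma adjusted p = 0.024), and -0.57, -0.61 and -0.61 with no call when WT replicate 2, MYC replicate 2 or Zab+MYC replicate 2 was left out. It was also not called in DESeq2 (-0.77, adjusted p = 0.18), with library totals (-0.61, limma adjusted p = 0.054) or on the deposited scale (-0.50, limma adjusted p = 0.12).

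TOP3B, the type IA enzyme that also acts on RNA, lies at 22311397 to 22337184 on chromosome 22, minus strand (hg19). Levels in CPM were 58.7 and 77.3 (WT), 69.6 and 69.4 (MYC), 78.9 and 77.1 (Zab) and 65.2 and 73.0 (Zab+MYC). The WT libraries spanned nearly the whole range of the others. No comparison of TOP3B was called, and the widest pairwise difference, Zab against WT, was 0.21 (95% interval -0.15 to 0.56). MYC against WT gave 0.04 (-0.31 to 0.40). These pairwise intervals do not show that the level was the same. Its counted transcript differed most, with 3 versions of 2792 to 3811 exon bases, and RefSeq names a pseudogene, TOP3BP1.

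TDP1, which hydrolyses the bond between a trapped TOP1 and DNA, lies at 90422271 to 90511108 on chromosome 14, plus strand (hg19). Levels in CPM were 14.5 and 19.1 (WT), 10.7 and 7.14 (MYC), 20.1 and 19.0 (Zab) and 12.7 and 11.3 (Zab+MYC). Libraries with overexpressed MYC all lay below those without it, on 8 to 18 tags each. MYC against WT was -0.79 ± 0.36 (95% interval -1.501 to -0.08) with a limma adjusted p of 0.052, which misses the threshold. The same difference was called with library totals (-0.90), on the deposited scale (-0.85) and in edgeR (-0.91). Zab+MYC against Zab gave -0.62 (-1.33 to 0.09). Neither Zab comparison was called, at 0.21 against WT (-0.51 to 0.92) and 0.37 between Zab+MYC and MYC (-0.34 to 1.08).

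TDP2, which removes TOP2 remnants from broken ends, lies at 24650207 to 24667127 on chromosome 6, minus strand (hg19). Levels in CPM were 14.5 and 11.1 (WT), 14.0 and 16.7 (MYC), 5.02 and 10.4 (Zab) and 11.7 and 12.8 (Zab+MYC). The 2 Zab libraries were lowest, on 3.5 and 8.5 tags. No comparison of TDP2 was called: Zab against WT gave -0.66 (95% interval -1.42 to 0.10), Zab+MYC against Zab 0.61 (-0.15 to 1.37) and MYC against WT 0.23 (-0.53 to 0.99). On the deposited scale Zab against WT was -1.10 with a limma adjusted p of 0.013. The intervals of both phosphodiesterases are wide and leave room for differences larger than some called for the other members. Tags such as 3.5 arise because a tag was taken as 2 counting steps.

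Levels were also set side by side per kilobase of counted exon, the scale on which genes can be ranked within a group. Where the counted transcript of a gene differed between libraries, this scale carries the difference in length. In WT, TOP2A stood first at 68.6 ± 2.67 CPM per kb (SD, n = 2), well above TOP1MT at 24.2 ± 0.332. TOP1, TOP3B and TOP2B followed at 19.2 ± 0.387, 17.8 ± 3.46 and 16.5 ± 1.86, neighbours that do not differ beyond their spread. TOP3A (7.48 ± 0.988), TDP2 (6.67 ± 1.25) and TDP1 (4.55 ± 0.874) were lowest in WT. The order changed in MYC, where TOP1MT led at 58.4 ± 5.99 and TOP1 (33.4 ± 1.98) and TOP2A (33.0 ± 1.38) were level within their spread. TOP2A was first again in Zab at 42.1 ± 0.729, and in Zab+MYC it came second at 38.3 ± 1.31 after TOP1MT at 44.8 ± 0.173.

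The 6 topoisomerases together came to 154 ± 1.73 CPM per kb (WT), 167 ± 3.55 (MYC), 131 ± 12.1 (Zab) and 147 ± 8.87 (Zab+MYC). TOP2A made up 44.6% ± 2.24 of that sum (WT), 19.7% ± 0.407 (MYC), 32.2% ± 2.42 (Zab) and 26.2% ± 0.689 (Zab+MYC). The share of TOP2A therefore moved by more than the sum did. The ratio of TOP2A to TOP1 per kilobase was 3.72 and 3.42 (WT), 1.06 and 0.920 (MYC), 2.07 and 2.18 (Zab) and 1.54 and 1.86 (Zab+MYC), with no overlap between groups. An exact test of 2 libraries against 2 cannot give a p under 0.333, so no p is set beside these ratios. TOP2A to TOP2B, the 2 type II isoforms, stood at 4.20 ± 0.638 (WT), 3.96 ± 0.0399 (MYC), 5.28 ± 1.75 (Zab) and 4.49 ± 1.42 (Zab+MYC), with single libraries from 3.49 to 6.52. TOP3A to TOP3B was 0.433 ± 0.139 (WT), 0.845 ± 0.118 (MYC), 0.455 ± 0.107 (Zab) and 0.752 ± 0.163 (Zab+MYC). The Zab ratio holds a change of counted transcript. TOP3B was counted over 2792 bases in Zab replicate 1 and 3811 in Zab replicate 2. Its 78.9 and 77.1 CPM thus became 28.3 and 20.2 CPM per kb, which also enters the Zab sum and its spread.

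**Figure D4:**
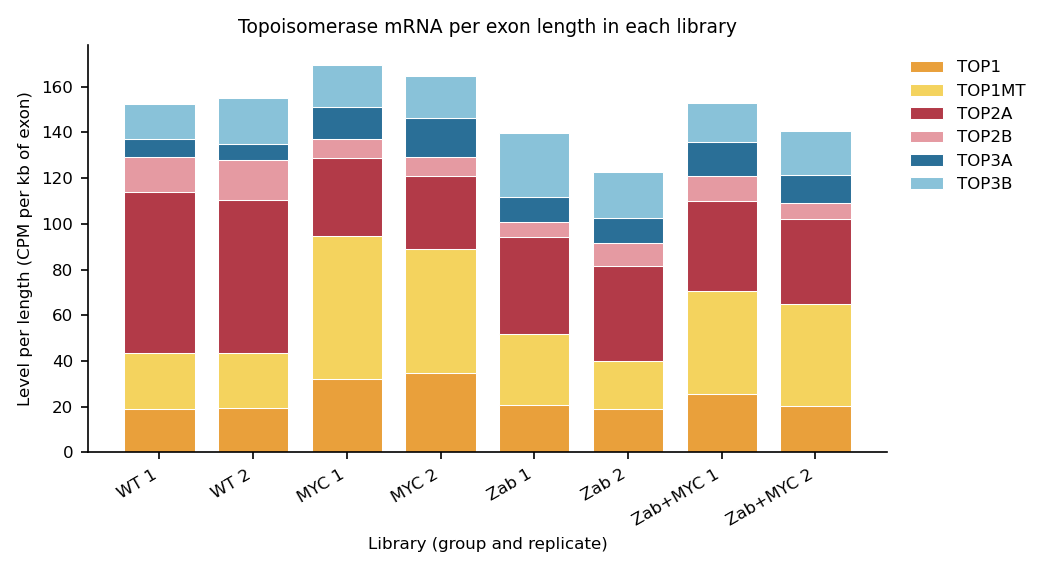
Level of the 6 topoisomerase genes in CPM per kb of counted exon (vertical axis, stacked from 0) in each of the 8 libraries. TOP2A takes 43.0% and 46.2% of the stack in WT and 19.4% and 20.02% in MYC, while the whole stack stays between 123 and 170.

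Genes around the topoisomerases were taken from 7 lists, and the authors' deposited scale, on which the median gene was at -0.51 in Zab against WT, is given where it changes the picture. TOP2A is itself a G2/M gene, so 30 other genes of late cell cycle and mitosis were set beside it. In MYC against WT, 14 fell and 3 rose (median log2 -0.30), or 56.7% called where 58.2% of all genes were, a share that is no result about the list. With library totals 15 fell and 1 rose. Among the fallers were NUSAP1 (3.04-fold, from 218 ± 29.7 to 70.1 ± 8.60 CPM), a spindle protein, and CCNB2 (2.76-fold), a mitotic cyclin. In Zab against WT, 22 fell and 0 rose (median -0.62, 73.3% called against 24.4% of all genes), for example BUB1B, a spindle checkpoint kinase, by 2.42-fold. With Zab present, adding MYC had 13 higher and 1 lower (median 0.33, Zab+MYC against Zab, 46.7% called against 26.8% of all genes). The largest rises were BUB1B (1.93-fold) and AURKA, a mitotic kinase (1.81-fold), and the 1 lower was NUSAP1 (log2 -0.56). TOP2A was not called there, and neither were 16 of the 30, among them CENPF (log2 -0.18) and MKI67 (0.02). Setting Zab+MYC against MYC, 4 rose and 0 fell (median 0.07), 13.3% called where 20% of all genes were. On the deposited scale 0 rose and 11 fell, and 7 and 2 rose with library totals and RLE factors. The interaction was higher for 19 and lower for 0 of 30 (median 0.64, 63.3% called against 27.9% of all genes), and TOP2A and TOP2B were at 0.92 and 1.04. The summed level of the 30 genes was 7275 and 7066 CPM (WT), 6034 and 6216 (MYC), 4963 and 4981 (Zab) and 6397 and 6293 (Zab+MYC). That sum was lowest in Zab, whereas TOP2A was lowest in MYC. Single genes of the list went either way. NUSAP1 (70.1 CPM in MYC, 109 in Zab), ASPM (62.9 and 78.5) and MKI67 (238 and 280) were lowest in MYC, like TOP2A. BUB1B (79.3 CPM in MYC, 31.6 in Zab), BIRC5 (448 and 267) and PLK1 (326 and 187) were lowest in Zab. The part of cell cycle state in the levels of TOP2A was not tested.

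**Figure D5:**
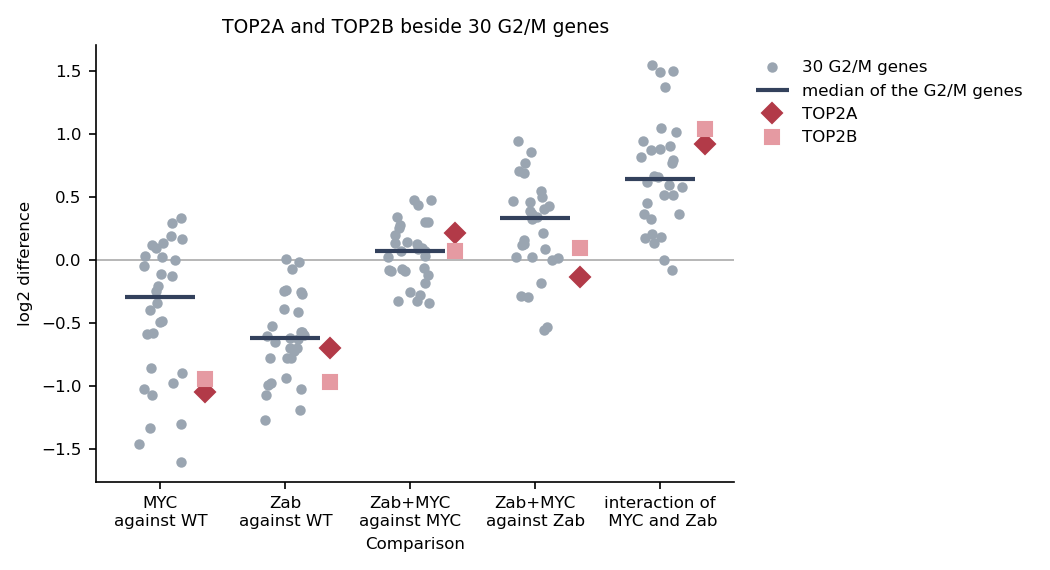
Log2 difference (vertical axis) of 30 G2/M genes (grey points, with their median as a bar), TOP2A (diamonds) and TOP2B (squares) in each comparison and in the interaction. In Zab+MYC against Zab the G2/M median is 0.33 and TOP2A is at -0.13, while 16 of the 30 genes are not called and CENPF is at -0.18.

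Cohesin, condensin and SWI/SNF remodellers work with type II topoisomerases on chromosome structure. Of 22, 10 fell and 3 rose in MYC against WT (median -0.28), and 10 fell and 1 rose in Zab against WT (median -0.38). The shares called were 59.1% and 50% against 58.2% and 24.4% of all genes, so the first is no result about the list. On the deposited scale 20 fell and 0 rose in Zab against WT (median -0.92), and DESeq2 had 2 lower and 0 higher. NCAPD2, a condensin I subunit, fell 1.79-fold in MYC, from 548 ± 19.5 to 306 ± 3.78 CPM. RAD21, the cleavable cohesin subunit, fell 1.62-fold in Zab, from 256 ± 5.94 to 157 ± 7.58 CPM. NCAPH2, of condensin II, was instead 1.87-fold higher in MYC. In Zab+MYC against Zab, 8 rose and 1 fell, but in DESeq2 1 rose and 0 fell. In Zab+MYC against MYC 2 rose and 1 fell, with 1 and 7 on the deposited scale and 2 and 3 with RLE factors. The interaction was higher for 8 and lower for 1, with 12 and 0 on the deposited scale but 2 and 1 in DESeq2. In Zab+MYC against Zab, Zab+MYC against MYC and the interaction, 40.9%, 13.6% and 40.9% were called. Over all genes these shares were 26.8%, 20% and 27.9%.

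Mitochondrial DNA maintenance, in which TOP1MT and TOP3A take part, had 13 genes tested. In MYC against WT, 8 rose and 0 fell (median 0.95, against -0.04 over all genes). The share called either way, 61.5%, was near the 58.2% of all genes. All of the called genes of the list were higher, where 27.8% of all genes were called higher and 30.4% lower. TWNK, the mitochondrial helicase, rose 5.96-fold from 30.7 ± 11.9 to 186 ± 4.30 CPM, and TFAM, which packages the mitochondrial genome, rose 2.60-fold from 63.8 ± 12.3 to 168 ± 8.83. TOP1MT itself rose 2.41-fold. Of the 13, Zab+MYC against Zab had 6 that rose and 0 that fell, including TFB2M, a mitochondrial transcription factor, by 2.77-fold. Set against MYC, Zab+MYC had 0 that rose and 3 that fell, with TWNK lower by 1.85-fold, SSBP1 by 1.65-fold and TFAM by 1.60-fold, and 0 and 7 on the deposited scale. In Zab against WT, TWNK (2.07-fold) and POLRMT, the mitochondrial RNA polymerase (1.39-fold), rose, but on the deposited scale 1 rose, 5 fell and POLRMT was at -0.07. The interaction was lower for 3 and higher for 0, with 2 lower on the deposited scale. In Zab against WT 15.4% were called, in Zab+MYC against MYC 23.1%, in Zab+MYC against Zab 46.2% and in the interaction 23.1%. Over all genes these shares were 24.4%, 20%, 26.8% and 27.9%.

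Repair of trapped topoisomerases uses proteases, SUMO ligases, nucleases and end joining. Of 30 such genes tested, 9 rose and 5 fell in MYC against WT, 46.7% called where 58.2% of all genes were, which is no excess. ZNF451, the SUMO ligase that works with TDP2, rose 2.59-fold (27.5 ± 12.1 to 71.4 ± 10.7 CPM), and EME1, the partner of the MUS81 nuclease, rose 2.53-fold. In Zab against WT, 2 rose and 6 fell, among them XRCC1, the scaffold of single-strand break repair (1.49-fold), and XRCC5, the Ku80 subunit (1.48-fold). On the deposited scale that comparison had 0 higher and 15 lower. In Zab+MYC against MYC, 2 rose, among them XRCC1 (1.62-fold), and 3 fell, with 0 higher and 13 lower on the deposited scale and 4 higher and 1 lower with library totals. DESeq2 called 0 of the 30 in that comparison. XRCC1 was not called there on the deposited scale either (log2 0.38, limma adjusted p = 0.13). Against Zab 3 rose and 0 fell, with 6 and 0 on the deposited scale. The interaction was higher for 4 and lower for 3, with XRCC1 at 1.26, but 7 and 1 on the deposited scale and 6 and 2 with library totals. In Zab against WT 26.7% were called, in Zab+MYC against MYC 16.7%, in Zab+MYC against Zab 10% and in the interaction 23.3%. Over all genes these shares were 24.4%, 20%, 26.8% and 27.9%.

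Direct partners of topoisomerases were tested for 7 of 9 genes. In MYC against WT 0 rose and 2 fell, 28.6% called where 58.2% of all genes were. In Zab against WT 0 rose and 1 fell, 14.3% against 24.4%, so neither is an excess. RMI2, which holds TOP3A and BLM together, fell 4.24-fold in MYC against WT, from 18.4 ± 0.994 to 2.92 ± 1.48 CPM, while TOP3A rose. That MYC level is near the floor, and the fold is on log2(CPM + 2), so it is smaller than the CPM values give. C11orf80, now named TOP6BL, the partner of the topoisomerase relative SPO11, fell 3.99-fold there (33.3 ± 2.42 to 6.84 ± 0.424 CPM), exceeded its MYC level 2.19-fold in Zab+MYC and was higher in the interaction (log2 1.52). BLM, the helicase of the same complex as TOP3A, fell 2.06-fold in Zab against WT (24.8 ± 3.87 to 10.9 ± 0.759 CPM). On the deposited scale 5 of the 7 fell in Zab against WT. DESeq2 also had 2 lower and 0 higher for MYC against WT. For Zab against WT it called 0 of the 7, so the fall of BLM was not called there. It likewise called 0 for the interaction and 0 when Zab+MYC was compared with MYC. Neither of these 2 changes of C11orf80 was thus called by DESeq2.

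Genes that limit or remove RNA-DNA hybrids, which form readily in negatively supercoiled DNA, counted 13. In MYC against WT, 5 rose and 1 fell: DDX21, a nucleolar helicase, rose 4.34-fold (98.4 ± 3.58 to 434 ± 15.2 CPM) and RNASEH2A fell 1.68-fold, with 5 and 3 by library totals. The share called was 46.2% there, where 58.2% of all genes were called, which is no excess. In the other contrasts, in the order of the report, it was 30.8%, 23.1%, 23.1% and 30.8%. Over all genes it was 24.4%, 20%, 26.8% and 27.9%, so these counts are no result about the list. In Zab against WT, 2 rose, DDX21 (1.67-fold) and DDX39B (1.14-fold), and 2 fell, but on the deposited scale 0 rose and 7 fell, with DDX39B at -0.36. Between Zab+MYC and MYC 1 rose and 2 fell, with 0 and 6 on the deposited scale and 2 and 1 by library totals, and between Zab+MYC and Zab 3 rose and 0 fell. The interaction was higher for 1 and lower for 3, with 4 and 1 on the deposited scale and 3 and 2 by library totals. Of 9 RecQ and other helicases, PIF1 and RECQL4 fell in both MYC and Zab against WT, PIF1 by 2.07-fold and 2.88-fold, and both were higher in the interaction. These were the only ones called in the main fit, 22.2% in each, where 58.2%, 24.4% and 27.9% of all genes were, which is no excess. DESeq2 had 1 lower and 0 higher of the 9 in MYC against WT and in Zab against WT, and called 0 in the interaction.

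The genes whose pattern over the 8 libraries was most like that of each member are given as a description, out of 7223 or 7224 genes with a mean of at least 20 CPM. TOP2A was most like ALDH7A1 (Pearson r = 0.996, n = 8), KLK6 and CCNI, which stood at 246, 129 and 537 CPM in WT and 73.1, 38.0 and 271 in MYC. TOP1MT was most like ENTPD1 (r = 0.992), AK4 and SLC39A14, and TOP3A was most like USP15, GTPBP3 and SMG1 (r = 0.989 to 0.990). TOP1 had PFKP (r = 0.983), PLEKHA3 and ARL14EP, and TOP2B had GGH (r = 0.987), USP33 and C5orf24. TDP1 had CREB3, PYCR3 and BBS4, and TDP2 had AURKB, ZRANB1 and ETFA (r = 0.955 to 0.957). TOP3B was not matched, since its group means span 0.21 on the log2 scale, under the 0.5 required. The points share 4 groups of 2 libraries, their depth and their scaling, so such r values arise from few distinct levels.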

How the data were processed

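The authors deposited 1 table per library with an exon signal per gene. Per the file headers, HOMER counted tags in exons of RefSeq coding genes (hg19) and kept 1 transcript per symbol. That transcript differed between libraries for 50.6% of genes. STAR (version not given in the sources used here), HOMER 4.11.1, Trim Galore 0.6.6 and builds (hg19, dm6) are listed, per the submitters' processing notes. No source used here says whether counting was by strand, so reads of overlapping antisense genes cannot be told apart. The deposited signal was 100% whole multiples of 1 step per library, within 0.1 step. A tag was taken as 2 steps, an assumption under which exon tags were 60.6% to 76.1% of the header total. 1 tag was worth 0.315 to 0.537 deposited units, a scaling whose origin no source used here gives. Per the file headers, the path of the tag folders holds the word spikein, and dm6 is a listed build, so the factor may come from a spike-in. The deposited scale would then compare RNA relative to the spike-in, whereas the values of the report are scaled as if most genes did not change.

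From the recovered tags, CPM were computed with TMM factors, genes were kept with filterByExpr (9673), and limma-trend was run on log2(CPM + 2) of all 8 libraries with 1 mean per group. Residual degrees of freedom were 4, and 71.2 after moderation, so small p-values rest on the spread pooled over genes. Tests were two-sided, with Benjamini-Hochberg adjustment over all genes tested and calls at an adjusted p under 0.05. The scale of log2(CPM + 2) understates fold changes of low genes. Alternatives were RLE factors, library totals, the deposited scale, pseudocounts of 1 and 5 CPM, no filter, 5 CPM in 2 libraries, edgeR, DESeq2, a replicate block, 1 step per tag, each library left out, only the 4 libraries compared, and genes with the same transcript. The fit was checked on simulated data. Named genes were all members, up to 4 called genes of largest change per list and comparison, and the 3 most alike genes per member, some of which are not reported here. Members and lists were chosen with earlier results of these data known. Coordinates are hg19, 1-based; promoter coordinates are GRCh38.p14. Tools were DESeq2 1.42.0, edgeR 4.0.16 and limma 3.58.1 in R 4.3.3, and matplotlib 3.10.9, pandas 2.3.3 and numpy 2.4.6 in Python 3.11.15.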

Additional observations from a re-analysis of the deposited data

Results flagged for a closer look

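The change with MYC differed with and without Zab, by a direct test of the difference, for 4 of the 8 genes, where 27.9% of all genes were called. The change with MYC was less negative with Zab by 0.917 on the log2 scale for TOP2A and by 1.04 for TOP2B: both were lower with MYC in cells without Zab and were not called in cells with Zab. The same difference of changes was -0.586 for TOP1 and -0.705 for TOP3A: both were higher with MYC in cells without Zab and were not called with Zab. Of the alternatives, 11 of 20 lost the call for TOP1, 6 of 19 for TOP3A, 4 of 19 for TOP2B and 0 of 20 for TOP2A. ADAR and MYC levels in Zab+MYC differed from those in the single groups, and their part in these values was not tested.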

How the results depend on the processing

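Over 807 recomputed values of single genes, 765 kept their side of the threshold, 29 lost the call and 10 gained it with the same sign. The other 3 turned sign and also gained or lost the call. The 765 kept their direction too, except 20 that turned sign while called in neither fit, at up to 0.324 on the log2 scale. Those 3 that changed both were Zab against WT on the deposited scale for TOP1 (-0.488), TOP1MT (-0.485) and TOP3A (-0.0098). TOP1 and TOP1MT, at 0.04 and uncalled in the main fit, gained a call, and TOP3A lost its call. Members called, 5, 3, 1, 1 and 4 in the order of the report, became 2 in MYC against WT and 1 in Zab against WT with genes of the same transcript, where 3 members remained measurable. In Zab against WT they became 5 (0 higher) on the deposited scale. In Zab+MYC against MYC they became 2 with library totals, 3 on the deposited scale, 2 in edgeR and 0 in DESeq2 (1 at an unadjusted p under 0.05). In Zab+MYC against Zab they became 2 on the deposited scale and 0 of 4 with the same transcript in limma (0 at an unadjusted p under 0.05). In the interaction they became 2 with library totals, on the deposited scale, with no filter and with the same transcript, and 1 in DESeq2. Leaving out 1 library gave 0 to 1 in Zab+MYC against MYC, where the 0 arose without MYC replicate 2 or Zab+MYC replicate 2, and 2 to 5 in the interaction. The lone library of a group was then assumed to vary like the others. The cause was not tested. With a replicate block the counts stayed at 5, 3, 1, 1 and 4. Replicate numbers did not pair the libraries (correlations -0.0226 to 0.0143 over 6 pairs of groups). Over all genes, DESeq2 called 886 against 2363 in limma for Zab against WT, 709 against 1933 for Zab+MYC against MYC, 925 against 2592 for Zab+MYC against Zab and 1141 against 2695 for the interaction. The deposited scale called 5018 and 3522 in the first 2 of these. The share of called genes that were higher moved on the deposited scale from 53.8% to 5% in Zab against WT, from 59.3% to 16.3% in Zab+MYC against MYC, from 53.4% to 73.4% in Zab+MYC against Zab and from 52.2% to 71.3% in the interaction. Library totals moved it from 59.3% to 70.1% in Zab+MYC against MYC. The median gene on the deposited scale lay at -0.09, -0.51, -0.31, 0.14 and 0.22, and with library totals at -0.16 in MYC against WT and 0.11 in the interaction. Leaving out 1 library of the pair compared took the all-gene calls in Zab+MYC against MYC from 1933 to between 1136 and 1322, and leaving out Zab+MYC replicate 2 took those in Zab+MYC against Zab from 2592 to 1712. Genes with the same transcript, fewer of which could be tested, gave 3203 calls against 5633, 1479 against 2363, 1180 against 1933, 1631 against 2592 and 1511 against 2695. TDP1 and TDP2 rest on few tags, with 12 to 36 tags per group.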
